A study of Mus musculus with 31 samples.

Results

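The proteasome genes were followed across 31 arrays of mouse liver RNA. All genes of the array annotation whose symbol begins with Psma, Psmb, Psmc, Psmd or Psme and a number were taken, each through the probe set with the highest mean intensity over the 31 arrays. This gave 42 of 17097 genes. They comprised the 7 alpha subunits of the 20S core, its 7 standard beta subunits, the 3 immune beta subunits Psmb8, Psmb9 and Psmb10, 5 of the ATPases of the 19S cap, 11 non-ATPase subunits of the cap, the cap's assembly chaperones Psmd5 and Psmd9, the 11S activator subunits Psme1, Psme2 and Psme3, the testis subunit Psma8 and the thymus subunit Psmb11. The other 2 matches, Psmc3ip and Psme3ip1, are not proteasome subunits. Psmc3ip encodes a meiotic recombination factor and Psme3ip1 a nuclear protein that binds PSME3. Psmc6, Psmd10 and Psme4 were not analysed here, as no probe set carried their symbol alone.

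Proteasomes degrade proteins marked with ubiquitin. The 20S core is a stack of rings in which alpha subunits form the gate and beta subunits hold the catalytic sites, and the 19S cap recognises, unfolds and feeds in the substrate. Interferon exchanges the catalytic subunits PSMB6, PSMB7 and PSMB5 for PSMB9, PSMB10 and PSMB8, and PSME1 and PSME2 form the PA28 activator, which together serve the production of peptides for MHC class I. In the liver, as elsewhere, misfolded proteins of the endoplasmic reticulum (ER) are handed to the proteasome after retrotranslocation, and NFE2L1 (NRF1) induces the standard subunit genes when proteasome activity is short.

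The study examined fed male mice without Xbp1 (Xbp1 ko by label), a regulator of genes that restore ER folding, or without Ire1 (Ire1 ko), the sensor encoded by Ern1 that splices Xbp1 mRNA. In the Xbp1 experiment, Xbp1 ko mice and their wild-type (WT) littermates were 14 weeks old, with 4 arrays each. In the siRNA experiment, Xbp1 ko mice of 9 weeks carried siRNA against luciferase or against IRE1 for 8 days, with 4 arrays each. There was no WT group in it. In the Ire1 experiment, WT and Ire1 ko mice of 14 weeks were untreated or given tunicamycin, an inhibitor of N-glycosylation used to provoke ER stress, at 2 mg/kg for 6 h. Each of these groups had 4 arrays, apart from the 3 of untreated Ire1 ko. The labels do not state a vehicle injection for the untreated mice. They give the strain as C57BL/6, except for the Ire1 ko mice, whose strain they give as mixed, so Ire1 genotype and strain background cannot be told apart. They do not describe the alleles or the cells in which they were deleted.

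The arrays of a group are labelled as biological replicates and correlated at 0.984 to 0.993 on the log2 scale, and 0 pairs of arrays were identical. The intensity of the Xbp1 probe set was 470 ± 80.3 (SD, n = 4) in Xbp1 ko and 944 ± 140 (SD, n = 4) in WT. Ern1 went against the siRNA labels. Its intensity was 18 to 35 under the luciferase siRNA label and 169 to 236 under the IRE1 siRNA label (4 arrays each), so directions of the siRNA comparison are given as labelled throughout. Ern1 did not check the Ire1 knockout, as it read 150 in untreated Ire1 ko and 149 in untreated WT, and the position of its probe set relative to the deletion is not known. Markers of hepatocytes, the main liver cell, were bright, with all 9 measured markers at 16 or more on average in each group. In bulk liver, fewer cells of a type and less RNA per cell cannot be told apart.

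Of the 42 genes, 39 had a mean intensity of 16 or more. Psma8, Psmb11 and Psmc3ip averaged 5.45, 5.03 and 5.29, near the median of 5 of each array, and none of these 3 was called in any comparison. All 42 passed the filter on low intensities in every comparison. Limma called 32 of them at an adjusted p below 0.05 in at least 1 of the 7 comparisons, nearly all in those that involve tunicamycin. The same count over all genes was not made. After tunicamycin in WT alone, 32.4% of genes with a mean of 16 or more were called higher and 34% lower.

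The promoters below belong to the immune beta subunits and the PA28 subunits, which fell together after tunicamycin, and to Psme3, which rose. They are the 300 bases from 250 before to 50 after the transcription start in RefSeq (GRCm38.p6), read 5′ to 3′ along the gene. Capitals mark matches of GAAA-NN-GAAA, the interferon-stimulated response element (ISRE), and TTCNNNGAA, the gamma-activated site (GAS), searched on both strands.
Psmb8, chr17:34197945-34198244, plus strand: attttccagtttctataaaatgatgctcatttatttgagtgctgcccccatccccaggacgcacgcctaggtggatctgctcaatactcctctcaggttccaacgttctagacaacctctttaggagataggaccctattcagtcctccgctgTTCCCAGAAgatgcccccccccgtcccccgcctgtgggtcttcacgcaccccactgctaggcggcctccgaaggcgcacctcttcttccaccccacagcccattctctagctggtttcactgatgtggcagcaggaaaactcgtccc
Psmb9, chr17:34187281-34187580, minus strand: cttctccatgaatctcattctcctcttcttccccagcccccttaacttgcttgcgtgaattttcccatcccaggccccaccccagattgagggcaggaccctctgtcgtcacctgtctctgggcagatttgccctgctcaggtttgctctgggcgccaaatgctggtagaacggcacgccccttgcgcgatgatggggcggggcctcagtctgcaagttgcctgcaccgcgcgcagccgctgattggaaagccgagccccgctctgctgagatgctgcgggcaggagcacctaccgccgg
Psmb10, chr8:105938343-105938642, minus strand: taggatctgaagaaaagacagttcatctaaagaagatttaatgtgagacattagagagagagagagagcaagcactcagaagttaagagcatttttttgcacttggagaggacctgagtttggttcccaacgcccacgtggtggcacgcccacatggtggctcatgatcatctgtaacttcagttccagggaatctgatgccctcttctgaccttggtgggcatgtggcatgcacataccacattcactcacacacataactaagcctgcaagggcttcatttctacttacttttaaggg
Psme1, chr14:55578244-55578543, plus strand: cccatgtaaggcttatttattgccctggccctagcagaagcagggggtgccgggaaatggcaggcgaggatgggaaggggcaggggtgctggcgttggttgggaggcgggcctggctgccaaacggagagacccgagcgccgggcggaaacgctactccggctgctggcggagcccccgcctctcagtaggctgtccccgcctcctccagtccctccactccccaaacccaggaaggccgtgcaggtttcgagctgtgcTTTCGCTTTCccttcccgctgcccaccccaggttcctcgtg
Psme2, chr14:55591052-55591351, minus strand: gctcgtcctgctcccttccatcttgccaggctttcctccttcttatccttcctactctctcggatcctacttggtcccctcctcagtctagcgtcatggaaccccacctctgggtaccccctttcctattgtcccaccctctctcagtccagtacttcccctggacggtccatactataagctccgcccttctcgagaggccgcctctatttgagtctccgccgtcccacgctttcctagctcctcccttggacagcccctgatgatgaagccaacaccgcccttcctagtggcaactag
Psme3, chr11:101315963-101316262, plus strand: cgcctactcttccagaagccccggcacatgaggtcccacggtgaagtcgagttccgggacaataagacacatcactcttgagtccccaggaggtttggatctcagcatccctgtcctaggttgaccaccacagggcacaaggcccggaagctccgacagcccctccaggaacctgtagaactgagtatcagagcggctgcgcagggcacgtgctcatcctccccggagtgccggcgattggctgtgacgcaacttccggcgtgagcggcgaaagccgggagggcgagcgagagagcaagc
The GAS letters lie at -97 from the start of Psmb8 and the ISRE letters at 9 from the start of Psme1. The other 4 windows held neither set of letters. Of 32851 mouse promoters of this length, 3.44% held the ISRE letters and 8.30% the GAS letters. Promoters were given for 35 of the 42 genes, and 4 of these held the ISRE letters (Psmb3, Psmd4, Psmd9 and Psme1) and 2 the GAS letters (Psmb8 and Psmd2). TGACNNNGC, the core of the antioxidant response element bound by NFE2L1, was in 4 (Psmb5, Psmb6, Psmd12 and Psmd9), against 12.4% of all promoters. ACGTGG, a core of the element bound by XBP1, was in 4 (Psma1, Psma4, Psmb10 and Psmd9), against 8.31% of all. The full ER stress response element, CCAAT and CCACG with 9 bases between them, was in 0 of the 35, against 0.119% of all. A match describes letters and not binding. ACGTGG read on the other strand shares CCACG with the full element.

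The immune proteasome genes were lower after tunicamycin in WT liver. Psmb8, which encodes the immune counterpart of PSMB5, had intensities of 99, 100, 109 and 110 in untreated WT and of 50, 51, 52 and 57 after tunicamycin. It fell by 0.99 on the log2 scale (SE 0.20, adjusted p = 0.000878). Psmb10, the counterpart of PSMB7, read 169, 173, 200 and 215 before and 74, 75, 95 and 102 after. It fell by 1.14 (SE 0.18, adjusted p = 6.43e-05). In both genes every tunicamycin array lay below every untreated array. Psmb9, the counterpart of PSMB6, read 62, 64, 75 and 80 before and 19, 30, 31 and 31 after, a fall by 1.36 (SE 0.28, adjusted p = 0.000821). The probe sets of Psmb9 disagreed, however. Its second probe set averaged 43.5 ± 4.65 (SD, n = 4) before and 42.5 ± 7.05 (SD, n = 4) after tunicamycin in WT, a log2 change of -0.04 (SE 0.15, adjusted p = 0.894).

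The PA28 genes fell with them. Psme1 read 350, 382, 444 and 480 in untreated WT and 214, 231, 237 and 244 after tunicamycin, and fell by 0.83 (SE 0.13, adjusted p = 6.5e-05). Psme2, its partner in the ring, read 317, 337, 362 and 368 before and 184, 202, 209 and 229 after, and fell by 0.75 (SE 0.10, adjusted p = 1.7e-05). The groups did not overlap in either gene. Psme3 encodes PA28 gamma, a nuclear activator outside the interferon response, and it rose. It read 63, 70, 74 and 76 before and 122, 135, 145 and 157 after, a rise by 0.98 (SE 0.11, adjusted p = 2.08e-06). A second probe set of Psme3 rose by 1.18 (SE 0.13, adjusted p = 2.42e-06). The 11S family thus divided, with PA28 alpha and beta lower and PA28 gamma higher.

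The same 5 genes fell in Ire1 ko. Psmb8 read 83, 123 and 130 in untreated Ire1 ko and 35, 56, 69 and 81 after tunicamycin, and fell by 0.93 (SE 0.22, adjusted p = 0.00395). Psmb10 read 200, 231 and 328 before and 98, 105, 144 and 152 after, and fell by 1.01 (SE 0.19, adjusted p = 0.00066). The highest tunicamycin array stayed below the lowest untreated one in both genes. Psmb9 read 37, 72 and 76 before and 13, 18, 28 and 32 after on the probe set used, a fall by 1.46 (SE 0.30, adjusted p = 0.00139). Its second probe set averaged 27.7 before and 34.8 after, a log2 change of 0.33 with an adjusted p of 0.177. The fall of Psmb9 therefore rests on 1 of its probe sets in both genotypes. Psme1 read 382, 441 and 585 before and 264, 311, 316 and 336 after, and fell by 0.60 (SE 0.14, adjusted p = 0.00368). Psme2 read 320, 366 and 414 before and 232, 248, 274 and 289 after, and fell by 0.49 (SE 0.11, adjusted p = 0.00293). Psme3 rose by 0.94 (SE 0.12, adjusted p = 1.71e-05), from 53, 55 and 68 to 105, 110, 112 and 120.

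The difference between genotypes in the tunicamycin response was not called for any of these immune and 11S genes. The interaction was 0.06 (SE 0.30) for Psmb8, -0.10 (SE 0.41) for Psmb9, 0.12 (SE 0.26) for Psmb10, 0.23 (SE 0.19) for Psme1, 0.26 (SE 0.15) for Psme2 and -0.04 (SE 0.16) for Psme3. These standard errors do not show that the genotypes responded alike. After tunicamycin, Psme1 was 0.40 (SE 0.13, adjusted p = 0.0394) and Psme2 0.34 (SE 0.10, adjusted p = 0.0287) higher in Ire1 ko than in WT. The call of Psme1 was lost when any 1 of 7 of the 8 arrays was left out and that of Psme2 for 4 of the 8, so both are near the threshold. Psmb8 had a difference of 0.13 (adjusted p = 0.727), Psmb9 of -0.35 (adjusted p = 0.491) and Psmb10 of 0.52 (adjusted p = 0.0535), none of them called. Psmb10 passed under quantile normalization (0.54, adjusted p = 0.0277) and under the shift to a common median described below (0.53, adjusted p = 0.0195).

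**Figure D1:**
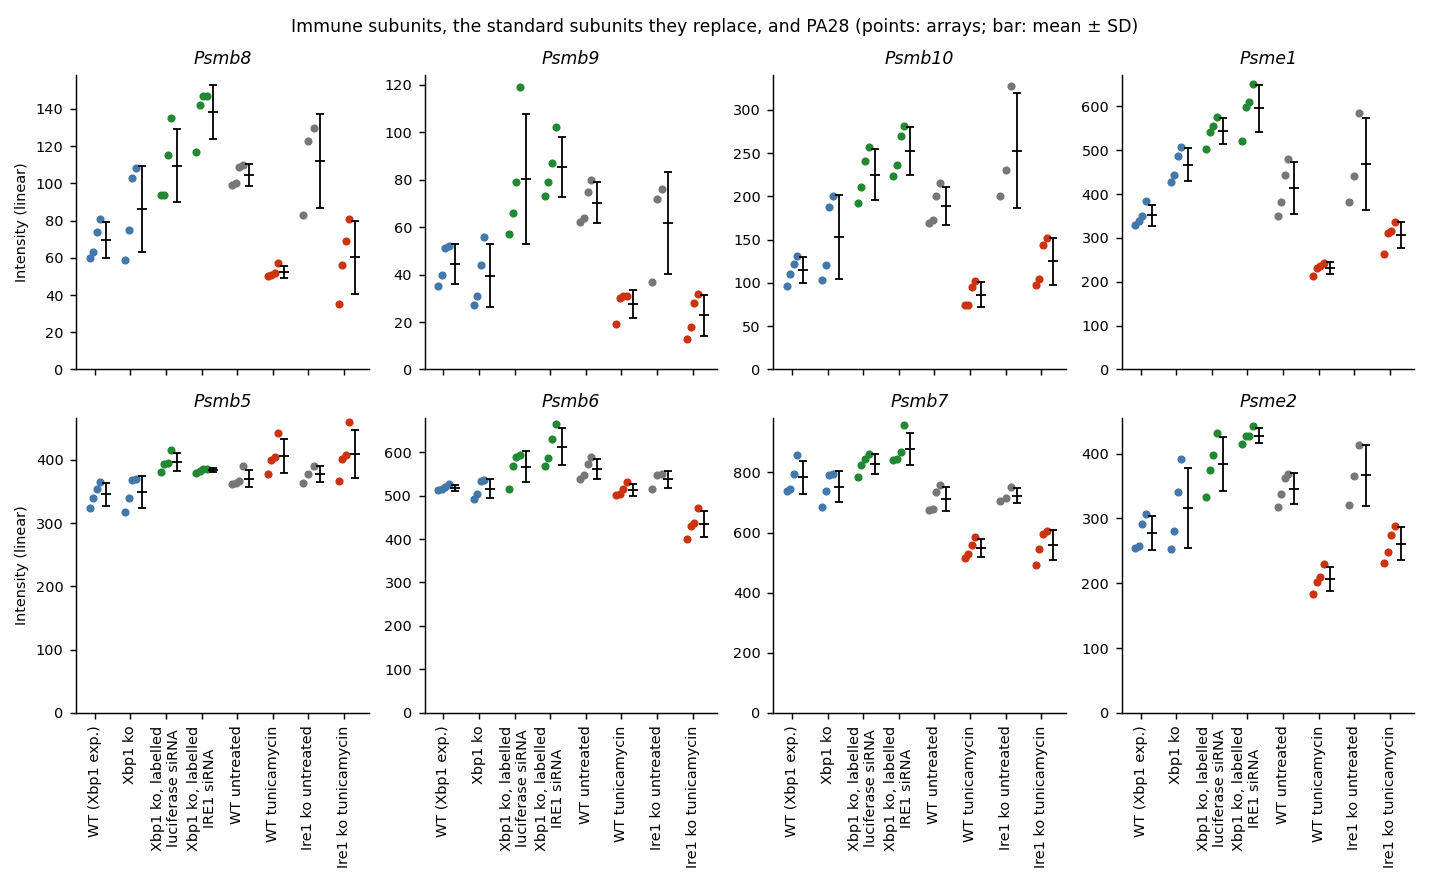
Intensity (linear scale, from 0) of the immune beta subunits, the standard subunits they replace and the PA28 subunits in the 8 groups. Points are arrays, and bars beside them the group mean ± SD. The tunicamycin arrays of Psmb8, Psmb9, Psmb10, Psme1 and Psme2 lie below the untreated arrays of their genotype, while those of Psmb5 do not.

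Of the standard catalytic subunits, Psmb7 fell in both genotypes, Psmb6 was called lower in Ire1 ko, and Psmb5 was called in neither. Psmb5, which carries the chymotrypsin-like site, read 362, 363, 366 and 390 in untreated WT and 377, 399, 404 and 442 after tunicamycin, a log2 change of 0.13 (SE 0.08, adjusted p = 0.24). The Ire1 ko arrays read 364, 378 and 390 before and 367, 401, 407 and 459 after, a change of 0.11 (SE 0.09, adjusted p = 0.413). The groups overlapped in both genotypes. Psmb6, which carries the caspase-like site, read 539, 547, 573 and 589 before and 501, 503, 515 and 530 after in WT, a change of -0.13 (SE 0.07, adjusted p = 0.149). These groups did not overlap, although the change was not called. In Ire1 ko it fell by 0.31 (SE 0.07, adjusted p = 0.0041), from 514, 548 and 549 to 399, 430, 437 and 471. The interaction of Psmb6 was not called. Psmb7, which carries the trypsin-like site, fell by 0.38 in both genotypes. It read 676, 678, 735 and 758 before and 517, 529, 560 and 584 after in WT (SE 0.08, adjusted p = 0.000801). In Ire1 ko it read 705, 714 and 751 before and 493, 544, 594 and 604 after (SE 0.08, adjusted p = 0.00238).

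Over all 42 genes, 6 were higher and 11 lower after tunicamycin in WT. Of the 15172 genes tested there, 18.5% were called higher and 17.6% lower. Among the genes with a mean of 16 or more, 32.4% were called higher and 34% lower, so the members' shares did not stand above those of other bright genes. In Ire1 ko, 7 were higher and 22 lower, against 17.4% higher and 10.3% lower among all genes tested and 32.2% and 22% among the bright ones. The median log2 change of the 42 was -0.12 in WT and -0.26 in Ire1 ko, against -0.02 and 0 over all genes tested. The split depends on the scaling. When arrays were shifted so that their brighter probe sets had a common median, which moved the median of all genes by -0.12 in WT and -0.18 in Ire1 ko, 4 were higher and 17 lower in WT and 2 higher and 26 lower in Ire1 ko. Under quantile normalization, 4 were higher and 12 lower in WT. Shares over all genes were not counted under these scalings, so these counts cannot be set against them.

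Of the 11 genes called lower in WT, 11 were also called lower in Ire1 ko, where they made up 11 of 22. They were the 5 immune and PA28 genes, Psma1, Psma6, Psmb3, Psmb7, Psmd1 and Psmd2. Called higher in both were Psmc2, Psmd8, Psme3 and Psme3ip1. How many of all genes were called in both genotypes was not counted, so this overlap cannot be set against theirs. The 2 genotypes have separate untreated arrays but share 1 estimate of the spread of each gene.

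Subunits of the standard 20S core were called lower after tunicamycin in both genotypes. In WT, 4 of its 14 subunits were called lower (Psma1, Psma6, Psmb3 and Psmb7) and 0 higher, with a median log2 change of -0.20. That is no larger a share than the 34% of bright genes called lower in WT, where 17.6% of all genes tested were. In Ire1 ko, 13 of 14 were called lower, all except Psmb5, with a median of -0.34 and a range from -0.70 (Psma1) to 0.11 (Psmb5), against 22% of bright genes and 10.3% of all genes tested called lower there. The 7 alpha subunits, which form the outer rings and the gate, were all called lower in Ire1 ko, with a range of -0.70 (Psma1) to -0.30 (Psma3). Their range in WT was -0.26 (Psma6) to -0.12 (Psma3). The falls of Psma2, Psma3, Psma4 and Psmb4 in Ire1 ko were lost without replicate 3 of untreated Ire1 ko, and those of Psma4 and Psmb3 also without several other arrays. Under the common median, 9 of the 14 were lower in WT and 13 in Ire1 ko, with no share over all genes counted at that scaling. The log2 change was lower in Ire1 ko than in WT for 12 of the 14, but the interaction was called for 2, Psma1 and Psmb2. How many of all genes had a lower change in Ire1 ko was not counted. A count of calls in each genotype alone does not test the difference between genotypes, and the interaction median of the 14 was -0.19, against 0.05 over all genes tested.

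Psma1 (alpha6) read 205, 214, 229 and 231 in untreated WT and 180, 189, 191 and 193 after tunicamycin, a fall by 0.22 (SE 0.08, adjusted p = 0.044) that was lost without any 1 of 7 of the 8 arrays. Its Ire1 ko arrays read 220, 229 and 230 before and 127, 135, 141 and 155 after, a fall by 0.70 (SE 0.09, adjusted p = 1.56e-05). The groups did not overlap in either genotype, and the interaction was -0.48 (SE 0.12, adjusted p = 0.0218). Psmb2 (beta4), a structural beta subunit, read 360, 367, 380 and 385 before and 392, 401, 404 and 421 after in WT, a change of 0.12 (SE 0.07, adjusted p = 0.256). In Ire1 ko it fell by 0.30 (SE 0.08, adjusted p = 0.00836), from 354, 369 and 395 to 270, 303, 312 and 324. Its interaction was -0.42 (SE 0.11, adjusted p = 0.025), which was lost without replicate 2 of untreated Ire1 ko (adjusted p = 0.064). The 2 genes moved by similar amounts relative to WT, although only Psma1 fell in WT.

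**Figure D2:**
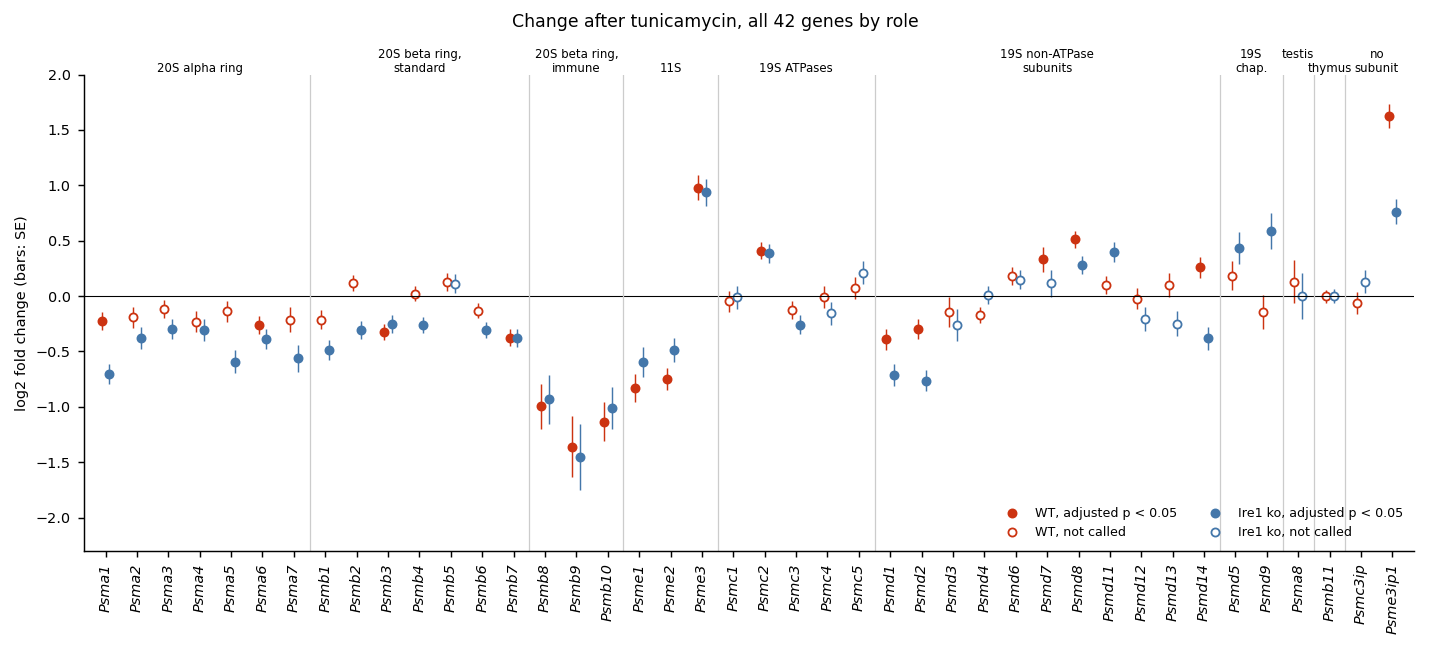
Log2 fold change after tunicamycin (y axis, with SE) of each of the 42 genes, ordered by role, in WT (red) and Ire1 ko (blue). Filled points had an adjusted p below 0.05. The immune subunits lie near -1 in both genotypes, and the alpha ring lies lower in Ire1 ko, where all 7 were called, than in WT, where 2 were.

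The 19S cap was mixed. Of the 16 ATPases and non-ATPase subunits measured, 4 were higher and 2 lower after tunicamycin in WT, and 3 higher and 4 lower in Ire1 ko. The higher calls depended on the scaling, as under the common median 2 were higher and 3 lower in WT and 0 higher and 8 lower in Ire1 ko. Shares over all genes were not counted under the common median. Without that shift, 18.5% of all genes tested were called higher and 17.6% lower in WT, and 17.4% and 10.3% in Ire1 ko. The shares of bright genes were then 32.4% and 34% in WT, and 32.2% and 22% in Ire1 ko. Among the ATPases, which unfold the substrate, Psmc2 read 364, 365, 368 and 381 before and 437, 476, 512 and 544 after in WT, a rise by 0.41 (SE 0.08, adjusted p = 0.000485). It rose by 0.38 in Ire1 ko (SE 0.08, adjusted p = 0.00238), from 310, 344 and 350 to 420, 423, 438 and 466, which was 0.21 and not called under the common median (adjusted p = 0.129). The other 4 ATPases were not called in WT, and of them Psmc3 was called lower in Ire1 ko (-0.26, adjusted p = 0.0355). That call of Psmc3 was lost without any 1 of 5 of the 7 arrays and with the replicate block.

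Psmd8 (Rpn12), a lid subunit, was among the members with the highest change. It read 462, 479, 491 and 521 before and 622, 691, 724 and 756 after in WT, a rise by 0.51 (SE 0.08, adjusted p = 4.59e-05). The groups did not overlap, and the call held under each alternative run in WT. In Ire1 ko it read 485, 499 and 515 before and 564, 580, 625 and 664 after, a rise by 0.28 (SE 0.08, adjusted p = 0.0179), which was 0.10 under the common median (adjusted p = 0.417). Psmd1 and Psmd2, the large scaffold subunits Rpn2 and Rpn1 of the base, fell in both genotypes. Psmd2 read 186, 203, 212 and 214 before and 152, 155, 175 and 182 after in WT, a fall by 0.30 (SE 0.09, adjusted p = 0.0127). Among Ire1 ko arrays it read 185, 190 and 192 before and 105, 107, 115 and 118 after, a fall by 0.77 (SE 0.09, adjusted p = 1.28e-05). No tunicamycin array reached an untreated one in either genotype. The interaction of Psmd2 was -0.47 (SE 0.13, adjusted p = 0.036), and that call was lost without any 1 of 7 of the 15 arrays. Psmd1 had changes of -0.39 (SE 0.09) in WT and -0.71 (SE 0.10) in Ire1 ko, and its interaction of -0.32 was not called (adjusted p = 0.208).

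Psmd14 differed in its response between the genotypes. It encodes Rpn11, the deubiquitinase of the cap. It read 370, 379, 387 and 427 in untreated WT and 430, 454, 465 and 526 after tunicamycin. The groups did not overlap, and the gene rose by 0.26 (SE 0.10, adjusted p = 0.0443). That call in WT was weak. It was lost when any 1 of 6 of the 8 arrays was left out and under 4 of the 8 other alternatives, with 0.14 and an adjusted p of 0.288 under the common median. In Ire1 ko it read 341, 350 and 408 before and 238, 292, 296 and 300 after, and fell by 0.38 (SE 0.10, adjusted p = 0.0108), a call lost without replicate 2 of untreated Ire1 ko (adjusted p = 0.0664). The interaction was -0.64 (SE 0.14, adjusted p = 0.00964) and held under all 8 other alternatives and without any 1 of the 15 arrays, between -0.70 and -0.56.

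The cap's assembly chaperones Psmd5 and Psmd9 were called higher in Ire1 ko alone. Psmd9 (p27) read 78, 87 and 89 before and 88, 127, 138 and 168 after, a rise by 0.59 (SE 0.16, adjusted p = 0.013), with the lowest tunicamycin array inside the untreated range. Psmd5 (S5b) read 102, 129 and 138 before and 147, 168, 170 and 176 after, a rise by 0.43 (SE 0.14, adjusted p = 0.0324). Both calls were lost under the common median and under quantile normalization. In WT the changes were -0.14 (SE 0.15) for Psmd9 and 0.18 (SE 0.13) for Psmd5, neither called, and the interactions were 0.73 (SE 0.22, adjusted p = 0.0628) and 0.25 (SE 0.20, adjusted p = 0.572).

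Psme3ip1, which is no subunit, had the highest change of the symbol matches in WT. It read 92, 109, 113 and 125 before and 298, 344, 351 and 358 after, a rise by 1.63 (SE 0.11, adjusted p = 4.93e-09). The Ire1 ko arrays read 85, 95 and 103 before and 143, 163, 164 and 170 after, a rise by 0.76 (SE 0.12, adjusted p = 0.000102). The interaction was -0.86 (SE 0.16, adjusted p = 0.00243), and after tunicamycin the 2 genotypes did not overlap.

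In all, 5 of the 42 genes were called for the interaction, 0 of them higher, against 3.58% of all genes tested called higher and 3.95% lower. Among genes with a mean of 16 or more, 7.47% were called in each direction. The 5 were Psme3ip1, Psmd14, Psma1, Psmd2 and Psmb2. The median interaction of the 42 was -0.12, against 0.05 over all genes tested and 0.14 over the bright ones. The log2 change was lower in Ire1 ko than in WT for 28 of the 42, and the same count over all genes was not made.

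**Figure D3:**
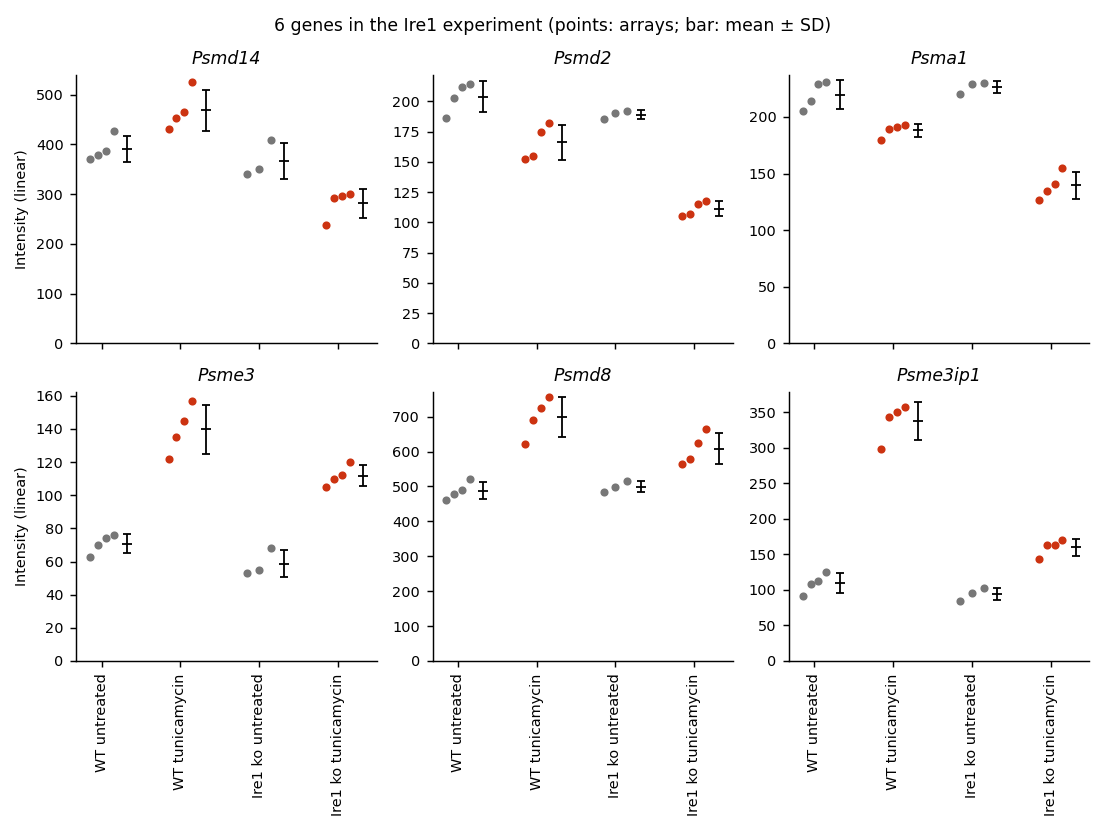
Intensity (linear scale, from 0) of 6 genes in the 4 groups of the Ire1 experiment, with points for arrays and bars for the group mean ± SD. Psmd14 lies higher after tunicamycin in WT and lower in Ire1 ko, Psmd2 and Psma1 fell in both and further in Ire1 ko, and Psme3 and Psmd8 rose in both.

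After tunicamycin, 4 of the 42 were higher and 10 lower in Ire1 ko than in WT, against 9.68% higher and 8.5% lower among all genes tested and 20.9% and 16.1% among the bright ones. The common median gave 6 higher and 9 lower, with no share over all genes counted at that scaling. The 10 lower genes were Psme3ip1, Psma1, Psma5, Psmb2, Psmb6, Psmd1, Psmd2, Psmd3, Psmd13 and Psmd14. The call of Psmb6 was lost under quantile normalization and under the common median. Psme3ip1 had the lowest value at -1.08 (SE 0.11, adjusted p = 1.69e-06), followed by Psmd14 at -0.74 (SE 0.10, adjusted p = 3.29e-05) and Psmd2 at -0.57 (SE 0.09, adjusted p = 0.000161). The array values of these 3 genes after tunicamycin, given above, did not overlap between the genotypes. Psmd3 (Rpn3), a lid subunit, read 50, 68, 70 and 78 in Ire1 ko and 87, 91, 92 and 98 in WT after tunicamycin, with no overlap. Its mean was 66.5 ± 11.8 (SD, n = 4) in Ire1 ko and 92 ± 4.55 (SD, n = 4) in WT, a difference of -0.49 (SE 0.13, adjusted p = 0.0166). It had been lower before treatment as well, with a difference of -0.37 (SE 0.14) that was not called (adjusted p = 0.409). The 4 higher genes were Psmd9, Psme1, Psme2 and Psmd11. Psmd9 was 0.56 higher (SE 0.15, adjusted p = 0.0162), with 88 to 168 in Ire1 ko and 82 to 92 in WT, ranges that overlapped. Psmd11 (Rpn6), a lid subunit, was 0.27 higher (SE 0.08, adjusted p = 0.0292), with 480, 521, 527 and 561 in Ire1 ko against 387, 432, 435 and 476 in WT, and its call was lost without any 1 of 6 of the 8 arrays.

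Without tunicamycin the proteasome genes differed little between groups. In Xbp1 ko against WT littermates, 1 of the 42 was higher and 0 lower, against 0.642% higher and 2.07% lower among all genes tested, with a median of -0.03 against 0.01. At an unadjusted p below 0.05, 2 were higher and 1 lower, with no share of all genes counted at that threshold. The called gene was Psme1, with 428, 444, 488 and 508 in Xbp1 ko against 330, 339, 351 and 385 in WT, a difference of 0.41 (SE 0.08, adjusted p = 0.0316). The groups did not overlap, but the call was lost without any 1 of 6 of the 8 arrays, with adjusted p between 0.00776 and 0.107 over its alternatives. Its partner Psme2 read 253, 281, 341 and 391 against 254, 258, 291 and 307, which overlapped, and had a difference of 0.17 (SE 0.14) that was not called. Psmb8 read 59, 75, 103 and 108 in Xbp1 ko against 60, 63, 74 and 81 in WT (0.28, SE 0.21). Psmb10 read 103, 121, 188 and 201 against 96, 110, 122 and 131 (0.37, SE 0.23). Psmb9 read 27, 31, 44 and 56 against 35, 40, 51 and 52 (-0.21, SE 0.25). None of these 3 was called, and in each the Xbp1 ko arrays spread over a wider range than the WT arrays. The 2 Xbp1 ko arrays with the higher Psmb8 and Psmb10 also had the higher summed intensities of Kupffer cell markers, 2245 and 1605 against 1356 and 1141 in the others. Of the 12 Kupffer cell markers, 0 were called in Xbp1 ko. Among 10 lymphocyte markers tested, 1 was called higher, against 0.642% of all genes tested. Summed neutrophil markers lay between 30 and 94 in Xbp1 ko and between 28 and 31 in WT, with 0 of 5 tested called. The part of any of these cells in the result was not tested. Psmb5 read 318, 340, 368 and 370 against 324, 339, 354 and 365, Psmb6 read 491, 503, 534 and 536 against 512, 514, 519 and 526, and Psmb7 read 685, 740, 793 and 795 against 739, 746, 794 and 857. All 3 overlapped. The 14 standard 20S subunits lay between -0.07 (Psma3) and 0.11 (Psmb3), and the 16 subunits of the 19S cap between -0.19 (Psmd3) and 0.19 (Psmd11).

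In Ire1 ko against WT without treatment, 0 of the 42 were called by limma in either direction, against 0.0791% higher and 0.863% lower among all genes tested. At an unadjusted p below 0.05, 0 were higher and 2 lower, with no share of all genes counted at that threshold. The median was -0.01 against -0.03 over all genes tested. The untreated values of the immune, PA28 and standard catalytic genes, given above, overlapped between the genotypes, with differences of 0.07 (SE 0.22) for Psmb8, -0.25 (SE 0.30) for Psmb9, 0.39 (SE 0.19) for Psmb10, 0.17 (SE 0.14) for Psme1, 0.08 (SE 0.11) for Psme2, 0.03 (SE 0.09) for Psmb5, -0.07 (SE 0.07) for Psmb6 and 0.02 (SE 0.08) for Psmb7. The standard 20S subunits lay between -0.07 (Psmb6) and 0.25 (Psma7), and the 19S subunits between -0.37 (Psmd3) and 0.03 (Psmd8).

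In the siRNA experiment, 0 of the 42 were called by limma in either direction in the arrays labelled IRE1 siRNA against those labelled luciferase siRNA, against 0.649% higher and 1.14% lower among all genes tested. At an unadjusted p below 0.05, 7 were higher and 0 lower as labelled. The share of all genes at that unadjusted threshold was not counted. The median was 0.08 as labelled against 0.04 over all genes and 0.08 over the bright ones. Psmb8 read 117, 142, 147 and 147 in the arrays labelled IRE1 siRNA and 94, 94, 115 and 135 in those labelled luciferase siRNA, which overlapped (0.35, SE 0.14). Psmb9 read 73, 79, 87 and 102 against 57, 66, 79 and 119 (0.13, SE 0.23), and Psmb10 read 223, 236, 270 and 281 against 192, 211, 241 and 257 (0.17, SE 0.11). Psme1 read 522, 599, 610 and 651 against 504, 541, 556 and 575 (0.13, SE 0.07), and Psme2 read 415, 427, 427 and 442 against 333, 375, 398 and 432 (0.16, SE 0.08). Psmb5 read 379, 383, 385 and 386 against 381, 394, 395 and 416. Psmb6 read 569, 587, 629 and 665 against 516, 567, 589 and 594. Psmb7 read 842, 846, 867 and 958 against 786, 824, 845 and 863. The groups overlapped in all 8 of these genes.

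**Figure D4:**
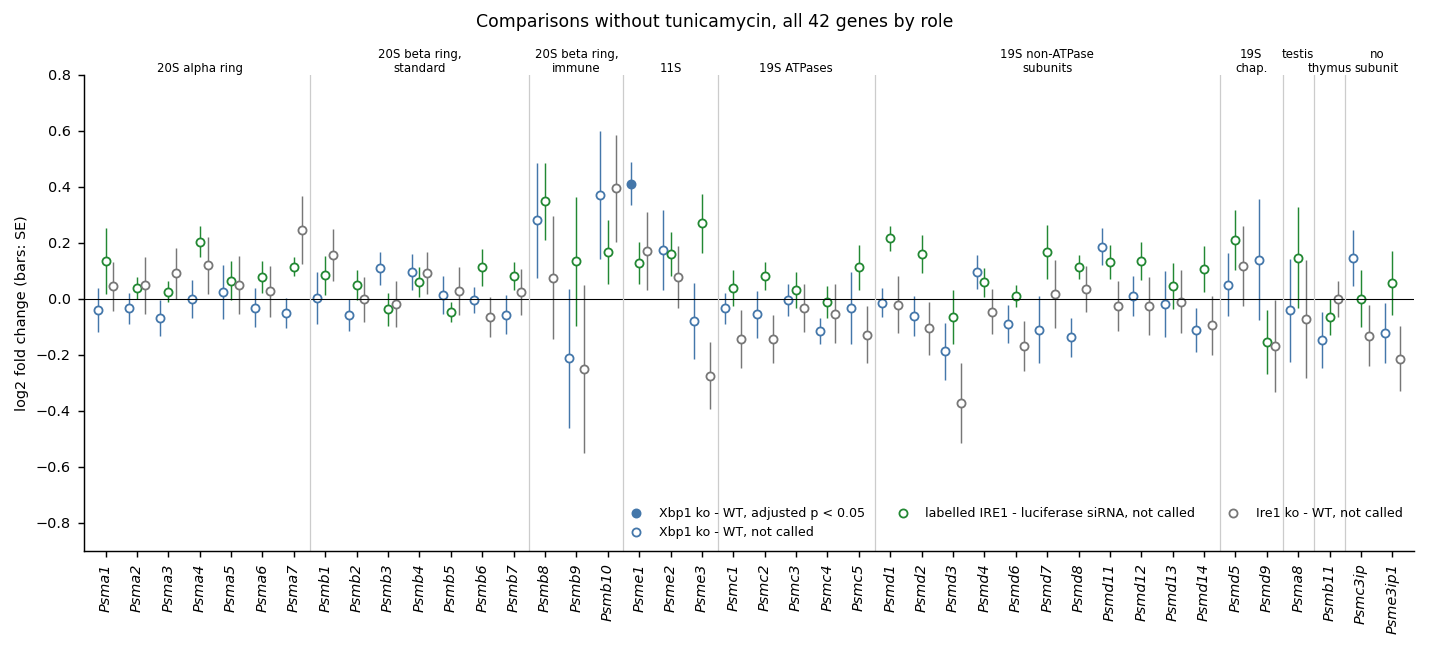
Log2 difference (y axis, with SE) of each of the 42 genes, ordered by role, in the 3 comparisons without tunicamycin; the siRNA direction is as labelled. Filled points had an adjusted p below 0.05. Psme1 in Xbp1 ko is the 1 filled point, and most differences lie close to 0, with wider bars for the immune subunits.

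Genes of a list of interferon-regulated and MHC class I pathway genes were measured beside the immune subunits. Of 18 measured among 24 listed, 13 were lower and 0 higher after tunicamycin in WT, with a median of -0.86, and 7 were lower and 1 higher in Ire1 ko, with a median of -0.50. Called lower were 17.6% of all genes tested in WT and 10.3% in Ire1 ko, and 34% and 22% of the bright ones. Irgm1, an immunity-related GTPase, had changes of -2.53 (SE 0.17) in WT and -1.81 (SE 0.18) in Ire1 ko. Irf1, a transcription factor that induces the immune subunits, changed by -2.00 (SE 0.19) and -1.67 (SE 0.21), from 38 to 9.5 and from 43.7 to 13.8. Igtp, another such GTPase, changed by -1.87 (SE 0.26) and -2.62 (SE 0.28). The summed intensity of the list lay between 666 and 765 in untreated WT arrays and between 326 and 378 after tunicamycin, and between 603 and 879 and between 377 and 491 in Ire1 ko. No interaction was called in the list. After tunicamycin, 1 of its genes was called higher in Ire1 ko than in WT and 0 lower, against 9.68% and 8.5% of all genes tested. The highest of these differences was 0.60, for Tapbp. Tapbp, the MHC class I loading factor tapasin, fell by 0.90 in WT (adjusted p = 1.02e-05). Without tunicamycin it was lower in Xbp1 ko than in WT, with -1.25 (SE 0.10, adjusted p = 0.000502). In the siRNA comparison as labelled its difference was -1.18 (SE 0.12, adjusted p = 0.00337). Ern1 went against those labels, so whether Tapbp was lower or higher with IRE1 siRNA is not settled here.

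Immune cells carry immune proteasomes, and their markers were measured as well. Of 12 Kupffer cell markers, 3 were called lower in WT after tunicamycin (Cd5l, Cd68 and Vsig4), against 17.6% of all genes tested and 34% of the bright ones. The median of the 12 was -0.69, with 6 lower and 1 higher at an unadjusted p below 0.05. Marco had the highest value, 1.02 (SE 0.42, adjusted p = 0.0733). In Ire1 ko limma called 0 of the 12, with 0 at an unadjusted p below 0.05 and a median of -0.17. Shares of all genes at the unadjusted threshold were not counted. Their summed intensity was 789, 1219, 1621 and 1627 in untreated WT arrays and 586, 676, 752 and 791 after tunicamycin. In Ire1 ko the sums were 768, 840 and 2533 before and 851, 881, 1138 and 1223 after. The sums thus lay lower after tunicamycin in WT, but for 1 overlapping pair of arrays, and overlapped in Ire1 ko. The untreated Ire1 ko array with the sum of 2533 (replicate 1) was the highest of its genotype in all 5 immune and PA28 genes, with 130 for Psmb8, 76 for Psmb9, 328 for Psmb10, 585 for Psme1 and 414 for Psme2. The calls of these 5 genes held without that array. The part of Kupffer cells in the result was not tested. Markers of lymphocytes summed to between 58 and 96 over the 8 groups, with 1 of 11 measured at 16 or more on average. None of the 10 tested was called after tunicamycin in either genotype. Markers of neutrophils summed to 27 to 42 in the Ire1 experiment, with 0 of 6 at 16 or more. Endothelial markers had 3 of 8 lower and 1 higher in WT and 1 lower and 1 higher in Ire1 ko. Of 8 stellate cell markers, 1 was lower in each genotype. Hepatocyte markers had 5 of 9 lower in WT, and 2 lower and 1 higher in Ire1 ko. Of all genes tested, 18.5% were called higher and 17.6% lower in WT, and 17.4% and 10.3% in Ire1 ko. The shares of bright genes were 32.4% and 34% in WT, and 32.2% and 22% in Ire1 ko.

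Genes that act with the proteasome moved in several directions. Of 7 genes of the NRF1 pathway, 2 were higher and 3 lower in WT, and 2 higher and 1 lower in Ire1 ko. Of all genes tested, 18.5% were called higher and 17.6% lower in WT, and 17.4% and 10.3% in Ire1 ko. The shares of bright genes were 32.4% and 34% in WT, and 32.2% and 22% in Ire1 ko. Nfe2l1 itself rose by 1.20 (SE 0.11, adjusted p = 2.56e-07) in WT and by 0.47 (SE 0.12, adjusted p = 0.00728) in Ire1 ko, with an interaction of -0.73 (SE 0.16, adjusted p = 0.0115). Mafk, a small MAF partner of NFE2L1, rose by 2.19 and 1.59, while Mafg, another, had changes of -1.16 and -0.93. Bach1, a repressor at the same DNA elements, fell by 1.02 in WT, had a change of -0.17 in Ire1 ko, and was called for the interaction (0.85, SE 0.22, adjusted p = 0.0266). Of the standard 20S genes, 0 were called higher in either genotype. In the 19S cap, Psmc2 and Psmd8 were called higher and Psmd1 and Psmd2 lower in both. The part of NFE2L1 in the changes of subunit genes was not tested.

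A list of 20S assembly factors and 19S chaperones, which also holds Ecpas, had 6 genes measured. Among them, Psmg2 and Psmg3, chaperones of the alpha ring, rose in both genotypes, by 0.92 and 0.97 in WT and by 1.11 and 0.66 in Ire1 ko. Pomp, which brings half-proteasomes together, had changes of -0.30 in WT and -0.57 in Ire1 ko, both called, in the direction of the core subunits. Of the 2 genes outside the symbol rule, Sem1, a small lid subunit, fell by 0.28 in WT (adjusted p = 0.0193) and Psmf1, a proteasome inhibitor, was not called. Of 14 listed ubiquitin and shuttle factors 7 were measured, and 6 of these were called higher in each genotype, against 18.5% of all genes tested in WT and 17.4% in Ire1 ko, and 32.4% and 32.2% of the bright ones. Ufd1 and Nploc4, which with p97 extract proteins from the ER, rose by 1.81 (SE 0.12) and 1.07 (SE 0.12) in WT and by 0.71 (SE 0.13) and 1.14 (SE 0.13) in Ire1 ko. The shuttle Ubqln2 rose by 1.13 and 0.43. The interaction was called for Ufd1 (-1.10, SE 0.17, adjusted p = 0.000648) and Ubqln2 (-0.70, SE 0.15, adjusted p = 0.00738). Of 6 genes of a list of deubiquitinases, ligases and other proteins at the proteasome, 3 were higher and 1 lower in WT and 1 higher in Ire1 ko. The shares called higher are those just given, and 17.6% of all genes tested and 34% of the bright ones were called lower in WT. Txnl1, a thioredoxin bound to the cap beside Rpn11, rose by 0.62 in WT and had a change of -0.06 in Ire1 ko, with an interaction of -0.68 (SE 0.13, adjusted p = 0.00303). Psmd14, the gene of Rpn11, had an interaction of -0.64.

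**Figure D5:**
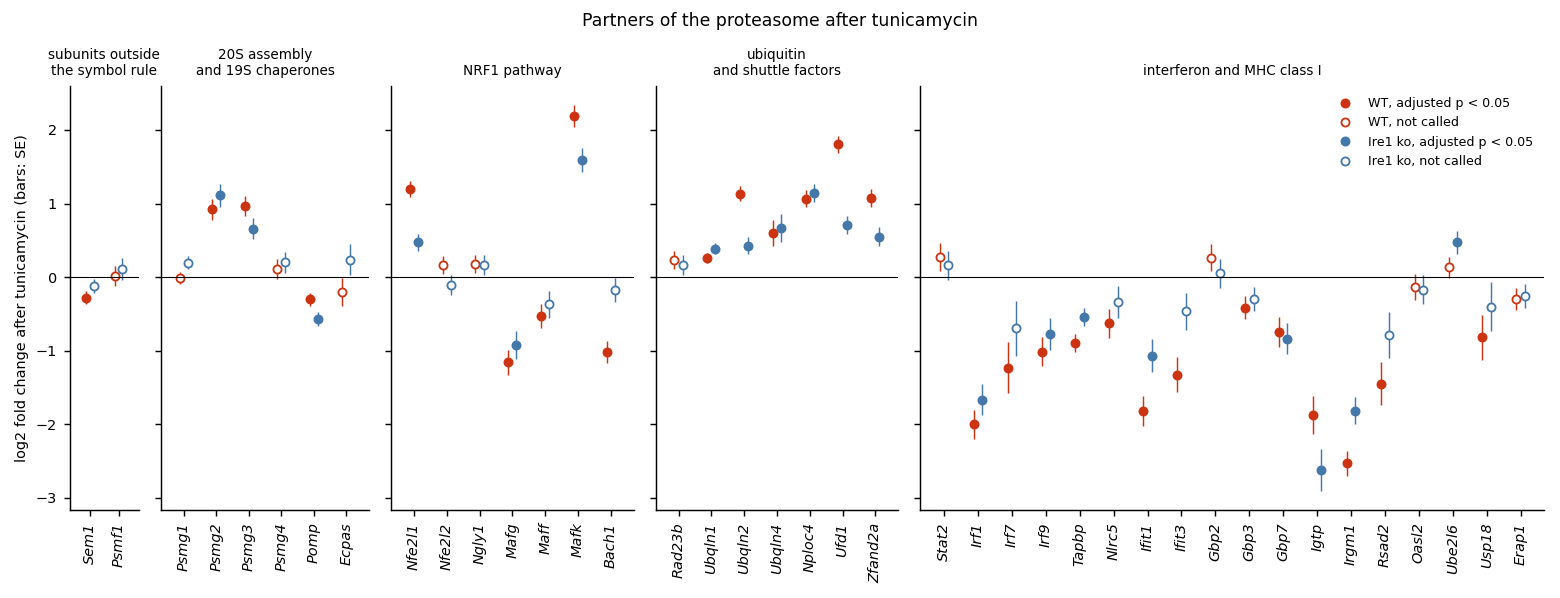
Log2 fold change after tunicamycin (y axis, with SE) of genes that act with the proteasome, in WT (red) and Ire1 ko (blue), in 5 groups. Filled points had an adjusted p below 0.05. Shuttle factors lie above 0, most interferon and MHC class I genes below, and Nfe2l1, Ufd1 and Ubqln2 higher in WT than in Ire1 ko.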

How the data were processed

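The deposited values were probe set intensities on a linear scale, made by the authors with RMA and the affy package per the submitters' processing notes (no versions, and whether all arrays were normalised in 1 run is not given in the sources used here), and were rounded to whole numbers with a lowest value of 3. Of 45037 probe sets, 28898 had 1 gene symbol, 551 several (2 of these name Psmd13 with Sirt3) and 15588 none in the annotation given. RMA includes quantile normalization and compresses low values. The number of arrays limits the precision.

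Log2 intensities were fitted per experiment with limma 3.58.1 in R 4.3.3 (lmFit, eBayes with intensity trend), two-sided, with Benjamini-Hochberg adjustment over all genes tested (those that exceeded the 30th percentile in 3 or more of the fitted arrays) and a threshold of 0.05. The Ire1 experiment was 1 fit of 4 groups. The fits were tested on simulated data. Each p-value sets a difference between groups against the spread between arrays of the same group. The members and lists were chosen with earlier results of these data known. Named with every array were up to 4 called members with the highest and up to 4 with the lowest change per comparison, and throughout Psmb5 to Psmb10, Psme1 and Psme2; of other lists, up to 3 called genes. Further members were chosen after their values were seen. Alternatives changed normalization, filter, fit, trend, probe set and replicate block, or left out 1 array. Deviations of same-numbered arrays correlated weakly (-0.19 to 0.29), so numbers were not taken as pairs. The correlations were all positive for WT with Xbp1 ko (0.014 to 0.26) and for WT with Ire1 ko after tunicamycin (0.088 to 0.18). They were all negative for untreated WT with Ire1 ko (-0.19 to -0.0028) and of both signs in the other comparisons.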

Additional observations from a re-analysis of the deposited data

Results flagged for a closer look

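The tunicamycin response differed between Ire1 ko and WT, by the interaction term of limma, for 5 genes: Psme3ip1 (-0.86 on the log2 scale), Psmd14 (-0.64), Psma1 (-0.48), Psmd2 (-0.47) and Psmb2 (-0.42).

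Among 19 members in 133 groups of 4 arrays, 6 arrays stood apart from the other 3 of their group, which is near the share of about 1 in 20 that chance gives. They were the highest Psmb5 array of untreated WT (390), the lowest Psmb8 array labelled IRE1 siRNA (117), the lowest Psmb9 array of WT after tunicamycin (19), the lowest Psmd14 array of Ire1 ko after tunicamycin (238), and the lowest Psmd9 arrays of WT littermates of Xbp1 ko (50) and of those labelled luciferase siRNA (82). The Psmd14 interaction stayed called without any 1 array.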

How the results depend on the processing

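The counts of called members stayed within 1.5 times under all alternatives except these. In Xbp1 ko the count of 1 became 0 with the replicate block and ranged from 0 to 1 when single arrays were left out. In the siRNA comparison the count of 0 became 1 with a filter at an intensity of 16 and ranged from 0 to 1 without single arrays. For the interaction the count of 5 became 3 with the mean of all probe sets, which averages in probe sets near the floor, and ranged from 3 to 6 without single arrays, with 3 when replicate 2 of untreated Ire1 ko was left out. With the replicate block, 14, 26, 13 and 5 members were called for tunicamycin in WT, in Ire1 ko, for the genotypes after tunicamycin and for the interaction. With the second-brightest probe set of 8 members, an alternative chosen after seeing the data, Psmb9 reversed after tunicamycin in Ire1 ko (0.33, adjusted p = 0.177). Among the named members and comparisons, 538 values of called results kept direction and call under an alternative, 58 kept direction and lost the call and 1 reversed. Dim probe sets near the floor of 3 limit what can be said of Psma8, Psmb11 and Psmc3ip.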
